A study of Bos taurus with 8 samples.

Results

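Cathelicidins and milk antimicrobial proteins are 10 genes whose products kill or hold back bacteria in milk and in inflamed tissue. The genes were taken as a fixed set, 7 of granulocyte type (CATHL1, CATHL2, CATHL4, CATHL5, S100A8, S100A9 and S100A12) and 3 of epithelial type (LTF, LPO and PIGR). On the array they had 24 of the 43653 probes, 15 for the granulocyte-type genes and 9 for the epithelial genes, each matched by the gene name or RefSeq accession printed with the probe. Of the 24 probes, 20 were bright enough to be tested, 11 and 9 of the respective groups, so that every gene kept at least 1 probe.

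The samples were total RNA from the mammary gland of 8 healthy lactating Holstein Friesian cows, a dairy breed. High-yield cows gave 11097 kg of milk per lactation on average and low-yield cows 6956 kg. The 8 arrays were two-colour, 2 to each of 4 cow pairs: a high-yield and a low-yield cow matched for lactation shared both arrays of their pair, with the dyes exchanged on the second. Pairs 1 and 2 were in lactation II and lay on 1 slide, and pairs 3 and 4 were in lactation IV and lay on the other slide, so lactation and slide cannot be told apart. The labels give no animal ages and no agent or infection. Cows are written H1 to H4 (high yield) and L1 to L4 (low yield), numbered by pair.

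Cathelicidins are stored as inactive precursors in neutrophil granules, and a protease frees a short cationic peptide that breaks bacterial membranes. S100A8 and S100A9 form calprotectin, a calcium-binding pair that withholds zinc and manganese from microbes, and S100A12 is a related neutrophil protein that signals through the receptor AGER. Lactoferrin (LTF) binds iron, lactoperoxidase (LPO) makes oxidants from thiocyanate and hydrogen peroxide, and the polymeric immunoglobulin receptor (PIGR) carries IgA across the epithelium into milk. Lactoferrin is also a component of neutrophil granules, and milk epithelium can itself make S100 proteins, so the division into granulocyte and epithelial products is one of main source.

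The probes are single strands of 60 bases, and their letters decide which of several related cathelicidin transcripts each one can report. Positions below are those printed in the file headers for the cattle build HGSC Btau_3.1, which carry no exon annotation here. A CATHL2 probe at chr22:52872440-52872643, minus strand, had 50 of its 60 bases in common with a probe for LOC515991, described as cathelicidin 7-like, at chr22:52884482-52884694, minus strand. Capitals mark the bases at which the pair differ.
CATHL2 A_73_P063676: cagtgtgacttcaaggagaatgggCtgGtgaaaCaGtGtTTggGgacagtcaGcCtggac
LOC515991 A_73_P063671: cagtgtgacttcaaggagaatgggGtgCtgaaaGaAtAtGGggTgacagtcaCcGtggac

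The same CATHL2 probe shared an unbroken run of 24 bases, in capitals here, with a probe for a transcript described as Bac7.5 protein-like at chr22:52861597-52861656, minus strand.
Bac7.5-like A_73_P063666: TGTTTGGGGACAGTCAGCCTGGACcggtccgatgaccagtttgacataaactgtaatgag
Signal at this CATHL2 probe therefore may come from more than 1 transcript. Among all probes of the array that share a run of at least 20 bases with a member probe, these were the only 2 that belong to no member gene.

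Shown next are the other CATHL2 probe with a clearly different read-out, the only CATHL5 probe and the second RefSeq-named CATHL1 probe, which was too dim to be tested. They lie at chr22:52872697-52872869, chr22:52905797-52906435 and chr22:52820032-52820675, all on the minus strand, and each spans more of the genome than its own 60 bases, which is the layout of a probe across a splice junction.
CATHL2 A_73_120001: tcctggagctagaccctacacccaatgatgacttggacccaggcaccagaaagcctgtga
CATHL5 A_73_111051: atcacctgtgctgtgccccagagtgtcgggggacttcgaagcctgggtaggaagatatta
CATHL1 A_73_P063651: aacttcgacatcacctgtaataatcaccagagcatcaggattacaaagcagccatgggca

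The S100A9 probe at chr3:18511639-18511698, minus strand, and an S100A12 probe at chr3:18500122-18500181, plus strand, stand for the related calcium-binding genes. Set side by side without gaps they had the same base at 28 of 54 positions, in capitals, with no long shared run.
S100A9 A_73_110650: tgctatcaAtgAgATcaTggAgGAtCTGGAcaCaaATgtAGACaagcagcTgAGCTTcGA
S100A12 A_73_P247181: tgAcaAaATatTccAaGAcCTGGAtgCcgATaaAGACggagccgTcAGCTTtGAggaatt

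For the epithelial genes, a pair of LTF probes that differed in the size of their dye gap and the PIGR probe that stood apart from its partners are shown. The LTF probes lie at chr22:54328739-54329225 and chr22:54345392-54345451, plus strand. The headers place the PIGR probe at chr16:3730226-3730234, minus strand, which covers only 9 of its bases.
LTF A_73_P107516: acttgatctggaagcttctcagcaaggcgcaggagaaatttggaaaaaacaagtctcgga
LTF A_73_P048381: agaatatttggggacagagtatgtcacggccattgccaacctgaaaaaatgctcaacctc
PIGR A_73_P303751: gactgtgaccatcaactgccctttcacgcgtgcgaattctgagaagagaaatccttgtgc

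The first comparison asked whether these genes differed between high and low milk yield. No member probe passed limma's test with Benjamini-Hochberg adjustment over all 29867 tested probes, of which 0% were called, and the adjusted p of the 20 member probes ran from 0.73 to 0.998. At an unadjusted p under 0.05, 1 of 20 member probes was below the threshold, against 6.45% of all tested probes. That probe, for S100A12, was higher in high-yield cows, as were 2.51% of all tested probes at this threshold, while 0 member probes were lower, against 3.94%. Values are log2 ratios of the high-yield over the low-yield cow, averaged over the 2 dye orientations of a pair, and n is the 4 cow pairs. Each pair is a different pair of cows, so the p-values measure the spread between cow pairs.

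Direction across pairs gave the same picture. Of the 20 member probes, 2 were higher in the high-yield cow of every pair, both for S100A12, against 8.21% of all tested probes, and 0 were lower in every pair, against 10.3%. Levels of the high-yield and low-yield cows overlapped for all 20 member probes, while 3.08% of all tested probes had groups that did not overlap.

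**Figure D1:**
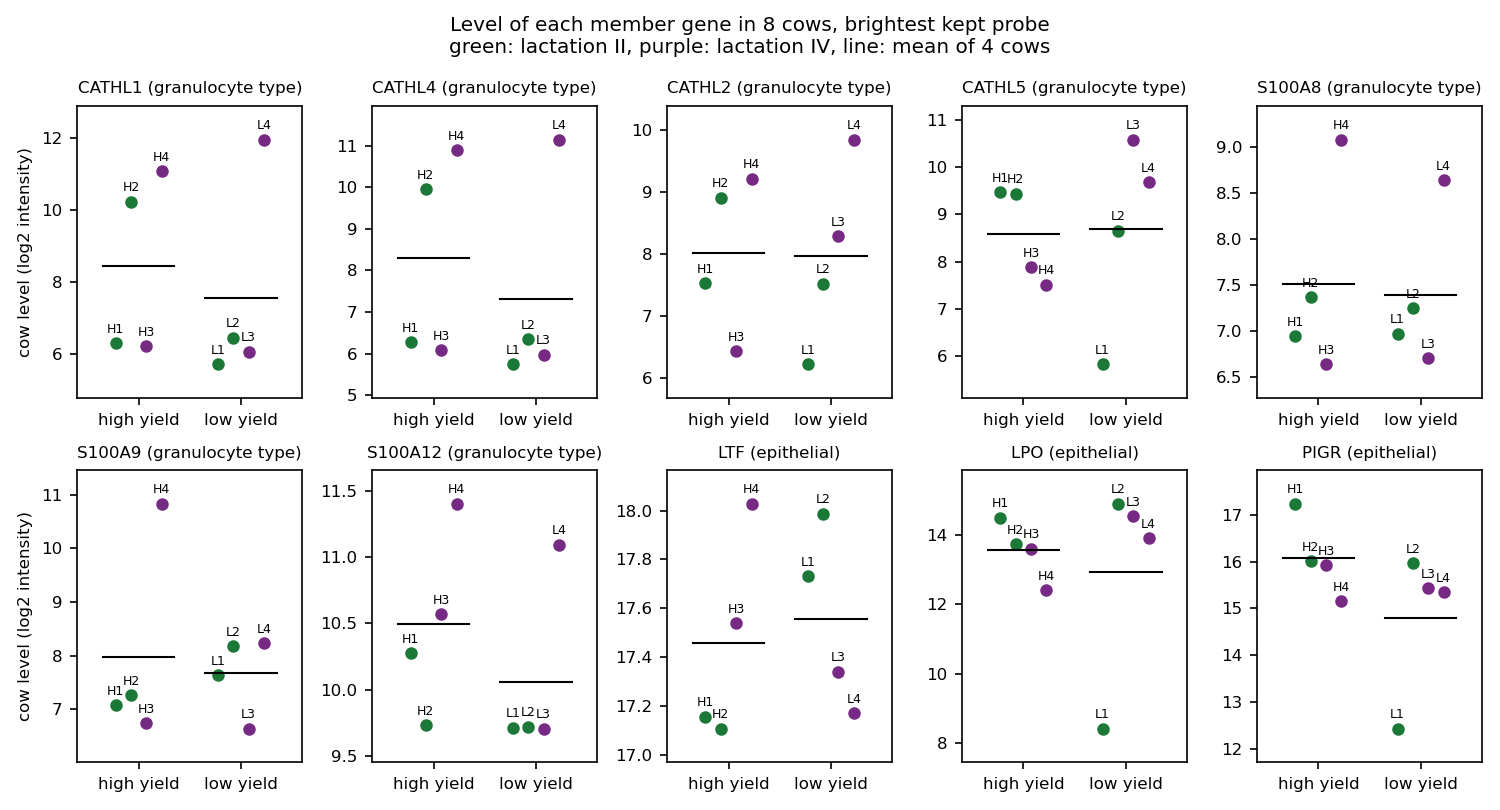
Log2 level of the brightest tested probe of each member gene (vertical axes, one scale per gene) in the 4 high-yield and 4 low-yield cows; points are cows, green for lactation II and purple for lactation IV, and lines are group means. CATHL1 and CATHL4 stand high in H2, H4 and L4, and LPO and PIGR stand low in L1 at 8.42 and 12.44.

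CATHL1 encodes the precursor of bactenecin, a short cyclic peptide. Its tested probe (chr22:52819898-52819957, minus strand) had log2 levels of 6.29, 10.23, 6.21 and 11.08 in H1 to H4 and of 5.71, 6.45, 6.06 and 11.96 in L1 to L4. Cows H2, H4 and L4 were bright and the other 5 lay near the foot of the scale, so both yield groups held bright and dim cows. The 4 pair ratios were 0.58, 3.77, 0.15 and -0.88, with a mean of 0.91 ± 0.78 (SE, n = 4; limma adjusted p = 0.774). The spot was well above background in 10 of the 16 array channels, in 7 of 8 for high-yield and 3 of 8 for low-yield cows. In pair 4 the array with H4 in Cy5 gave -2.04 and the one with H4 in Cy3 gave 0.28, so the dye orientations disagreed in sign.

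CATHL4, the precursor of the tryptophan-rich peptide indolicidin, showed the same bright cows at its tested probe (chr22:52813027-52813086, minus strand). Its levels were 6.27, 9.96, 6.08 and 10.89 in H1 to H4 and 5.74, 6.34, 5.97 and 11.15 in L1 to L4. The pair ratios of 0.53, 3.62, 0.11 and -0.26 averaged 1.00 ± 0.69 (SE, n = 4; limma adjusted p = 0.744). In pair 4 the dye orientations again disagreed in sign, with -1.68 for H4 in Cy5 and 1.16 for H4 in Cy3. The spot was well above background in 6 of 8 channels for high-yield and 4 of 8 for low-yield cows. CATHL1 and CATHL4 were thus tested only through the high-yield channels, where their means are higher, and the direction of these means carries no weight. Since the samples were whole tissue, fewer cells of a type and less RNA per cell cannot be told apart in this or any later value.

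Without pair 2 the CATHL1 mean was -0.05 and the CATHL4 mean was 0.13, so both positive means rested on that pair. The background correction moved them too: the CATHL1 mean was 0.46 with a saddle-point fit, 1.46 with an offset of 10 and 2.18 with processed signals, and the CATHL4 mean was 0.58, 1.53 and 2.37. None of these passed the adjusted test. The second RefSeq-named CATHL1 probe, printed above, was too dim to be tested but followed the same cows. It reached 9.17, 10.39 and 10.95 in H2, H4 and L4 and stayed between 5.92 and 6.77 in the other 5 cows. The 3 remaining untested member probes, 1 each for CATHL1, CATHL4 and S100A9, were named from expressed sequence tags. They lie on the plus strand, opposite to the RefSeq-named probes of the same genes, were well above background in 4 of 16 channels each, and had levels from 5.79 to 6.34. As placed, they would read the plus strand, and their levels are not used for the genes. The CATHL1 one lies at chr22:52812282-52812341, nearer to the tested CATHL4 probe than to the other CATHL1 probes.

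CATHL2 encodes the precursor of a long proline-rich peptide, and its 3 probes did not agree. At A_73_P423416 (chr22:52871552-52871610, minus strand) the levels were 6.43, 9.18, 6.46 and 9.90 in H1 to H4 and 6.04, 6.31, 6.27 and 10.67 in L1 to L4, with H2, H4 and L4 bright as for CATHL1. At A_73_P063676, the probe that shares bases with the cathelicidin 7-like and Bac7.5-like probes, they were 7.53, 8.90, 6.42 and 9.21 in H1 to H4 and 6.21, 7.52, 8.28 and 9.85 in L1 to L4. This probe kept the 3 bright cows but also put L3 above H1, H3, L1 and L2. At A_73_120001 the 8 cows lay within 6.30 to 8.22.

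The pair ratios made the disagreement plain. A_73_P423416 gave 0.39, 2.87, 0.18 and -0.77, with a mean of 0.67 ± 0.61 (SE, n = 4), which was 0.31 with the saddle-point fit and 2.02 with processed signals. Its spot was well above background in 8 of 8 high-yield and 5 of 8 low-yield channels, so the caution given for CATHL1 and CATHL4 holds for it too. A_73_P063676 gave 1.31, 1.38, -1.86 and -0.64, with a mean of 0.05 ± 0.62. A_73_120001 gave 0.48, 0.43, 0.42 and -0.79, with a mean of 0.13 ± 0.26. All 3 had a negative ratio in pair 4 and positive ratios in pairs 1 and 2, and they parted in pair 3. At A_73_P423416 the pair 4 array with H4 in Cy5 gave -2.13 and the one with H4 in Cy3 gave 0.59, so its sign there depended on the dye. The limma adjusted p-values of the 3 probes, in the order given, were 0.784, 0.987 and 0.898.

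CATHL5 encodes the precursor of a linear helical peptide and had the widest pair ratios of the granulocyte-type genes. Its levels were 9.47, 9.44, 7.88 and 7.51 in H1 to H4 and 5.83, 8.65, 10.58 and 9.68 in L1 to L4. L3 was highest and L1 lowest, and H4, bright for the other 3 cathelicidin genes, had the second lowest level. The pair ratios were 3.64, 0.78, -2.70 and -2.17, which averaged -0.11 ± 1.13 (SE, n = 4; limma adjusted p = 0.985). The sign of this mean changed with the background correction and the offset, so it has no settled direction. The dye orientations agreed in sign in each pair.

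Neighbouring cathelicidin probes outside the set fell along the same lines. A CATHL3 probe, too dim to be tested, was bright in H2, H4 and L4 at 8.50, 9.28 and 9.98 and lay between 5.92 and 6.41 elsewhere. The LOC515991 probe gave pair ratios of 1.02, 0.62, -1.64 and -0.84, and a CATHL6 probe, A_73_P112816, gave 1.35, 0.69, -1.88 and -1.01, the order of signs seen for CATHL5. The second CATHL6 probe, A_73_116963, gave 0.27, 0.89, 0.86 and 0.00, so CATHL6 also had probes that disagreed.

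**Figure D2:**
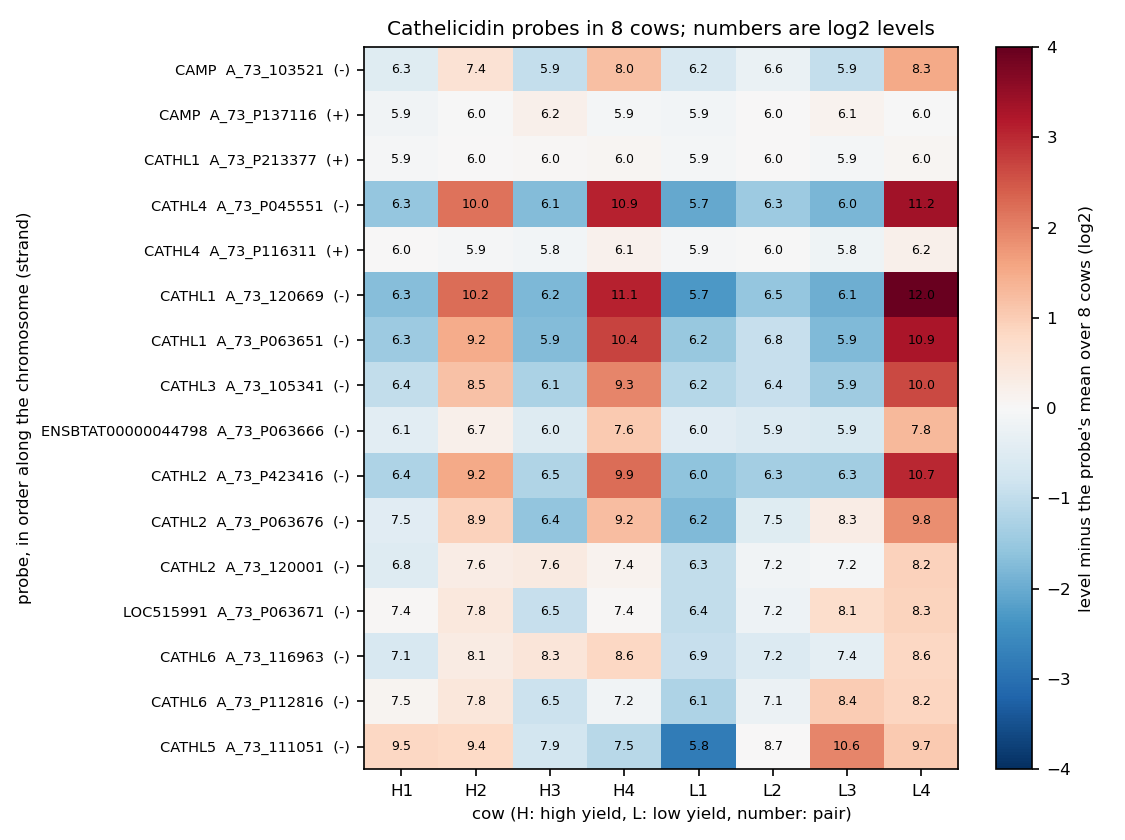
Log2 levels of 16 cathelicidin-region probes (rows, in chromosome order, with strand) in the 8 cows (columns), coloured by the difference from the probe's own mean. CATHL1, CATHL3, CATHL4 and A_73_P423416 of CATHL2 are high in H2, H4 and L4, CATHL5 is highest in L3 at 10.58, and the plus-strand probes are flat.

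S100A8, a calprotectin chain, varied little between the cows of a pair. Its levels were 6.94, 7.36, 6.64 and 9.08 in H1 to H4 and 6.97, 7.25, 6.70 and 8.64 in L1 to L4, with both cows of pair 4 above the other 6. The pair ratios of -0.02, 0.12, -0.06 and 0.44 had a mean of 0.12 ± 0.14 (SE, n = 4; limma adjusted p = 0.828). The arrays with high-yield RNA in Cy5 gave a mean of -0.25 and those with it in Cy3 gave 0.49.

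S100A9, the partner chain, was carried by 1 cow. Its tested probe had levels of 7.07, 7.26, 6.73 and 10.83 in H1 to H4 and 7.64, 8.18, 6.63 and 8.24 in L1 to L4, with H4 far above the other 7 cows. The ratios of -0.57, -0.91, 0.10 and 2.60 averaged 0.30 ± 0.62 (SE, n = 4; limma adjusted p = 0.903). Without pair 4 the mean was -0.46.

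S100A12 was the member gene with the steadiest direction, and it was 1.35- to 1.41-fold higher in high-yield cows at its pair of overlapping probes, a difference that did not pass the adjusted test. A_73_115208 (chr3:18500255-18500314, plus strand) had levels of 10.28, 9.73, 10.57 and 11.40 in H1 to H4 and 9.71, 9.72, 9.71 and 11.09 in L1 to L4. A_73_P050466 (chr3:18500286-18500345, plus strand), which shares a run of 29 bases with it, had 8.87, 7.94, 7.70 and 10.09 in H1 to H4 and 8.33, 7.38, 7.29 and 9.60 in L1 to L4. Both cows of pair 4 were highest at each probe, and the yield groups overlapped.

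The ratios of A_73_115208 were 0.56, 0.01, 0.86 and 0.31, with a mean of 0.44 ± 0.17 (SE, n = 4; limma adjusted p = 0.73). Those of A_73_P050466 were 0.54, 0.56, 0.41 and 0.49, with a mean of 0.50 ± 0.11 (limma unadjusted p = 0.0056, adjusted p = 0.73). The positive direction in all 4 pairs held for the averages of the dye orientations: with the high-yield cow in Cy5, the ratios of A_73_P050466 were -0.11, 0.31, 0.19 and 0.32. The third probe, A_73_P247181, shares no run of 20 bases or more with them, does not overlap them in position, and gave 0.19, -0.16, 0.35 and 0.56, with a mean of 0.23 ± 0.16 and a lower level in H2 than in L2.

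Of the erythrocyte markers, HBA and AHSP shared the direction of S100A12. Of 5 markers, 4 were tested. HBA levels ran from 8.90 to 12.46 in high-yield and from 6.82 to 8.91 in low-yield cows. AHSP levels ran from 7.15 to 8.57 in high-yield and from 6.93 to 7.36 in low-yield cows. HBA and AHSP, well above background in all 16 channels, were higher in the high-yield cow of every pair, a direction held by 9.66% of all named genes. HBB and HBM were well above background in 6 and 8 of the 8 high-yield channels and in 3 of the 8 low-yield ones, so they were tested only through high-yield cows and their direction carries no weight. ALAS2 was well above background in 1 of 16 channels. The part of blood in the S100A12 values was not tested.

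**Figure D3:**
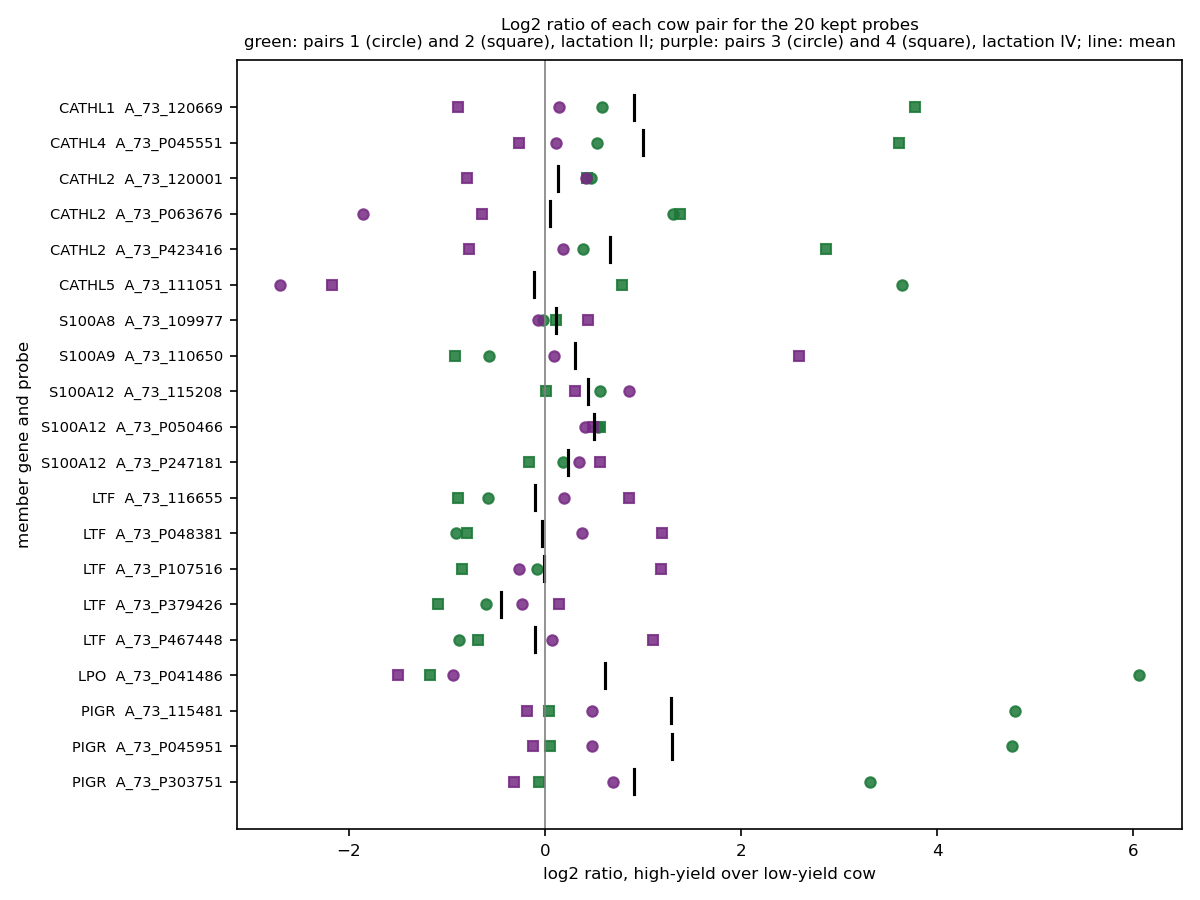
Log2 ratio of the high-yield over the low-yield cow in each of 4 pairs (points) and their mean (line) for the 20 tested member probes; green is lactation II and purple is lactation IV. Only the pair of overlapping S100A12 probes has all 4 points above 0, while LPO and PIGR owe their mean to pair 1.

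Across the granulocyte-type probes, pair 4 was the recurrent bright pair. A cow of pair 4 had the highest level at 10 of the 11 tested probes, and its cows were the 2 highest at 9 of them. Markers of neutrophils did not mark these cows out. Of 9 markers, 8 were on the array and 7 were tested, and their mean level was 8.31, 8.41, 8.96 and 8.55 in H1 to H4 and 8.67, 8.51, 8.28 and 8.60 in L1 to L4. The highest value was in H3, a cow with dim CATHL1, CATHL4 and S100A8. CXCR1 was well above background in at most 4 of 16 channels, and CXCR2 and ITGAM were low, from 6.08 to 6.78 and from 6.35 to 6.96.

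Among 30 genes of neutrophil granules and neutrophil function, 20 were tested, 0 passed the adjusted test, and 12 were higher and 8 lower in the mean. Of all named genes, 55.0% had a mean above 0. 1 of the 12 was tested only through high-yield cows, and without it 11 of 19 were higher. The median ratio of the 20 was 0.06, beside 0.03 for all 12604 named genes. NCF4 (1.78 ± 1.35, SD, n = 4) and NCF1 (0.90 ± 1.36), both subunits of the oxidase that makes superoxide, were among the genes higher in all 4 pairs, a direction held by 9.66% of all named genes. NCF1 and NCF4 were highest in H3, at 12.94 and 12.96. NCF4 was close to that in H4, at 12.80, where NCF1 stood at 10.70. None of the 11 tested granulocyte-type probes had its highest level in H3.

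**Figure D4:**
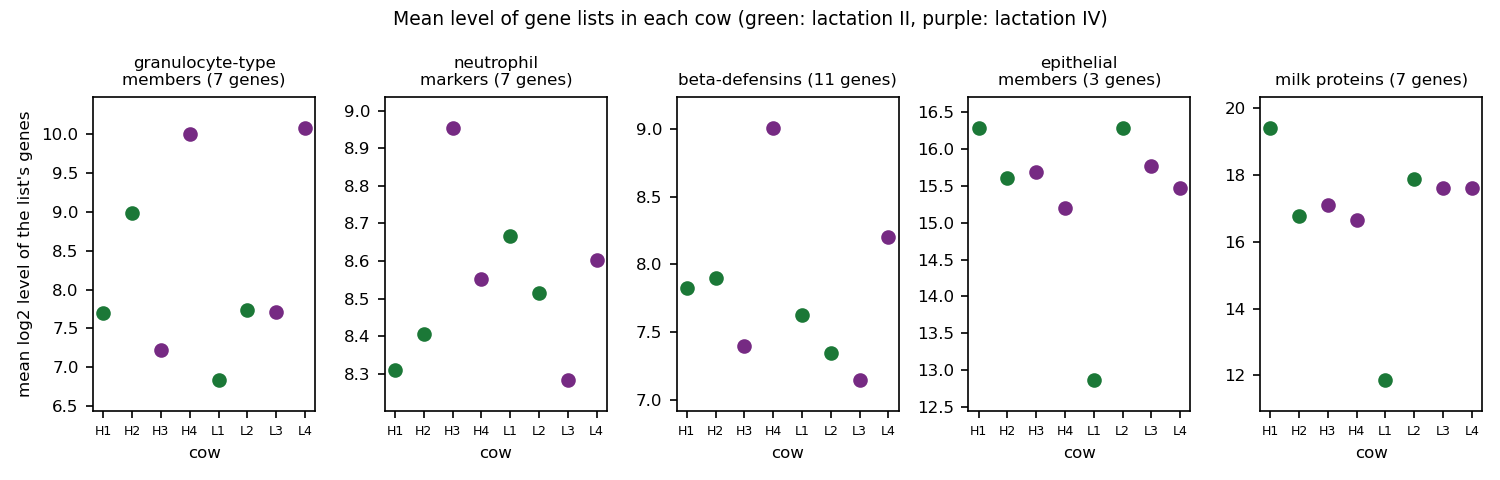
Mean log2 level of the tested genes of 5 lists (vertical axes, one scale per list) in each of the 8 cows; green is lactation II and purple is lactation IV. The granulocyte-type members are highest in L4 at 10.09 with H4 close behind, the neutrophil markers in H3 at 8.96, and the epithelial members and milk proteins are lowest in L1 at 12.86 and 11.85.

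LTF, the iron-binding protein of milk, was bright in every cow and did not separate the yield groups. Its brightest probe, A_73_116655 (chr22:54347128-54347187, plus strand), had levels of 17.16, 17.11, 17.54 and 18.03 in H1 to H4 and 17.73, 17.99, 17.34 and 17.17 in L1 to L4. The groups overlapped across their whole range, and H4 and L2 were highest. The ratios of -0.58, -0.88, 0.20 and 0.86 averaged -0.10 ± 0.32 (SE, n = 4; limma adjusted p = 0.943).

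The other LTF probes repeated the low ratios of pair 2. Those of A_73_P048381 were -0.90, -0.80, 0.38 and 1.20, and those of A_73_P467448 (chr22:54345290-54345348, plus strand) were -0.88, -0.69, 0.08 and 1.1. A_73_P107516 gave -0.08, -0.85, -0.27 and 1.18, and A_73_P379426 (chr22:54317888-54320923, plus strand) gave -0.60, -1.09, -0.24 and 0.15. All 5 probes were negative in pairs 1 and 2 and positive in pair 4, and they parted in pair 3. Means over 4 pairs ran from -0.45 to -0.0029, with limma adjusted p-values from 0.73 to 0.998. The probes target 1 gene and the same 8 arrays, so they are not replicates of the comparison.

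At 3 of the 5 LTF probes the dye orientation shifted the ratio widely. The mean ratio of A_73_P048381 was 1.14 with the high-yield cow in Cy5 and -1.20 with it in Cy3, a gap of 2.33, and the gap was 1.73 for A_73_P467448 and 0.90 for A_73_116655. Over all tested probes the median gap was 0.296 in size and the 95th percentile was 1.16. A_73_P107516 and A_73_P379426 had gaps of 0.15 and 0.12, but in pair 3 their orientations gave -1.02 against 0.48 and -1.19 against 0.72.

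**Figure D5:**
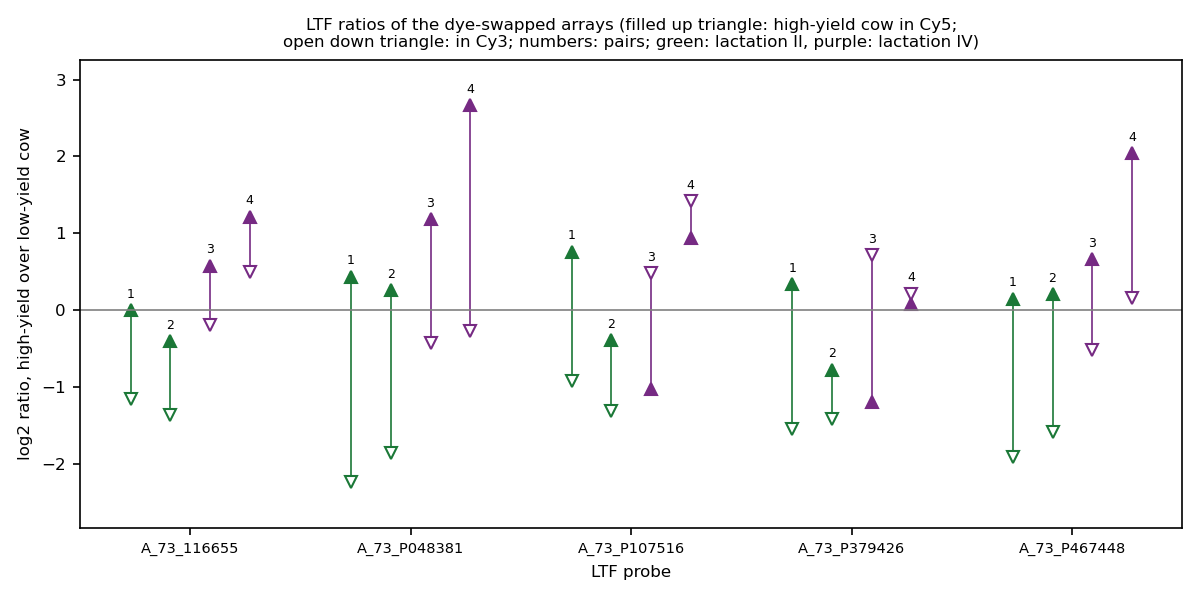
Log2 ratio of the high-yield over the low-yield cow on each of the 8 arrays for the 5 LTF probes; filled triangles have the high-yield cow in Cy5, open ones in Cy3, and numbers are pairs. A_73_P048381 spans -2.24 to 0.44 in pair 1 and -0.27 to 2.67 in pair 4, wider than the differences between pairs.

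LPO, the milk peroxidase, differed by far most in pair 1, where its probe (chr19:8460280-8460339, plus strand) was dim in the low-yield cow. Its levels were 14.48, 13.72, 13.60 and 12.40 in H1 to H4 and 8.42, 14.88, 14.53 and 13.89 in L1 to L4. L1 lay apart from 7 cows that spanned 12.40 to 14.88. The ratios of 6.06, -1.17, -0.93 and -1.49 gave a mean of 0.62 ± 1.40 (SE, n = 4; limma adjusted p = 0.915), positive through 1 pair and negative in 3. Without pair 1 the mean was -1.20 ± 0.16 (limma adjusted p = 0.386). A probe beside it, named only by a cluster number and described as lactoperoxidase, gave 7.84, -1.07, -1.45 and -1.47.

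PIGR, the IgA carrier, shared the low value of L1 but not the lower level in the other high-yield cows. A_73_115481 (chr16:3730287-3730345, minus strand) had levels of 17.23, 16.003, 15.92 and 15.16 in H1 to H4 and 12.44, 15.96, 15.44 and 15.34 in L1 to L4. Apart from L1 the cows spanned 15.16 to 17.23, with H1 highest. The ratios were 4.79, 0.04, 0.49 and -0.18, with a mean of 1.28 ± 0.91 (SE, n = 4; limma adjusted p = 0.745). Without pair 1 the mean was 0.11.

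A_73_P045951 (chr16:3730274-3730333, minus strand) shares a run of 47 bases with it and gave 4.77, 0.05, 0.49 and -0.13. A_73_P303751, printed above, gave 3.31, -0.06, 0.70 and -0.31, with a dye gap of -1.94 that runs opposite to the gaps of 1.07 and 1.09 at its partners. All 3 probes put H1 highest and L1 lowest.

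Milk protein genes were also low in L1. The mean level of all 7 (LALBA, CSN1S1, CSN1S2, CSN2, CSN3, PAEP and GLYCAM1) was 11.85 in L1 and 16.65 to 19.42 in the other 7 cows. The 8 markers of luminal epithelium averaged 12.63 in L1 and 12.37 to 13.11 in the others, and LTF in L1, at 17.73, was above 5 of the other 7 cows. Single luminal markers diverged in L1 behind that average. The keratins KRT8 and KRT18, with EPCAM and CDH1, were highest there, at 15.38, 13.79, 13.64 and 13.62. MUC1, a mucin of the cell surface, and ELF5, a factor of milk-secreting cells, were lowest there, at 8.30 and 12.71. KRT19 and CLDN4, at 15.04 and 8.59 in L1, lay within the range of the other cows. The part of secretory state or of cell makeup in the L1 values was not tested. LPO was also lower in the high-yield cow of pairs 2, 3 and 4, as were 6 of the 7 milk protein genes, all but GLYCAM1.

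Genes that work with these proteins were also compared from fixed lists, and 0 passed the adjusted test in any list. Among all 12604 named genes, 55.0% had a mean above 0, which is the share to set beside the counts that follow. Of 10 partners of the peroxidase system, 4 were tested and all 4 means were above 0. Without 1 gene tested only through high-yield cows, 3 of 3 were above 0. XDH and SLC5A5 owed their means to pair 1. Their ratios in pairs 1 to 4 were 3.24, -0.34, -0.47 and -0.94 for XDH and 0.58, -0.23, -0.02 and 0.06 for SLC5A5. DUOXA1, which matures a hydrogen peroxide source, was higher in all 4 pairs (0.32 ± 0.32, SD, n = 4). Of 13 genes of the IgA route, 11 were tested, 6 with a mean above 0 and 5 below. CD79A, a B cell receptor chain, was higher in all 4 pairs (0.65 ± 0.88), while JCHAIN, which joins IgA for transport by PIGR (-0.15 ± 0.17), and the plasma cell factor TNFSF13 (-0.32 ± 0.28) were lower in all 4. Shares among all named genes were 9.66% higher and 7.62% lower in all 4 pairs.

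Other families behaved as follows. Of 15 other S100 genes, 12 were tested, 10 with a mean above 0, and 0 had 1 direction in all 4 pairs. 1 of the 10 was tested only through high-yield cows, and without it 9 of 11 were above 0. The 22 other milk defence proteins had 20 tested genes, 13 of them with a mean above 0. Without 1 gene tested only through high-yield cows, 12 of 19 were above 0. The 20 inducers and receptors, among them the S100A12 receptor AGER and the Toll-like receptors, had 17 tested, 12 of them above 0. Without 1 gene tested only through low-yield cows, 12 of 16 were above 0. 0 genes of these families had 1 direction in all 4 pairs. On the list of other cathelicidins CATHL6 was the tested gene. Its brightest probe, A_73_116963, gave 0.51 ± 0.44 (SD, n = 4) with a margin of 0.00 in pair 4, while A_73_P112816, given above, was lower in the high-yield cow of pairs 3 and 4.

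The second comparison asked whether the yield ratio differed between lactation IV and lactation II. 5 of the 20 member probes, from 3 genes, had an unadjusted limma p under 0.05, against 7.66% of all tested probes, and none passed the adjustment, with adjusted p-values from 0.641 to 0.919 and 0% of all probes called. Of the 5, the CATHL2 and CATHL5 probes had the lower ratio in lactation IV and the 3 LTF probes the higher one. With 2 pairs in each lactation, the sign pattern is that of 4 cow pairs and of 2 slides.

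The CATHL5 ratio averaged 2.21 over the lactation II pairs and -2.43 over those of lactation IV, a difference of -4.65 ± 1.01 (SE; limma unadjusted p = 0.008, adjusted p = 0.641). CATHL2 at A_73_P063676 had 1.35 and -1.25, a difference of -2.59 ± 0.48 (unadjusted p = 0.0043, adjusted p = 0.641). Only these 2 member probes were higher in both pairs of lactation II and lower in both of lactation IV, against 7.85% of all tested probes. The CATHL2 signs were not shared by its other probes, whose ratio in pair 3 was positive.

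4 member probes ran the other way, against 7.03% of all tested probes: 3 of LTF and that of S100A9. LTF at A_73_116655 had -0.73 in lactation II and 0.53 in lactation IV, a difference of 1.26 ± 0.35 (SE; limma unadjusted p = 0.0187, adjusted p = 0.641). A_73_P048381 and A_73_P467448 differed by 1.64 ± 0.37 and 1.37 ± 0.43 at the same adjusted p, and they are the LTF probes with the widest dye gaps. With the saddle-point fit the 3 differences were 0.59, 1.13 and 1.02, and in the authors' deposited table that of A_73_116655 was 0.82, each with an unadjusted p above 0.05. S100A9 had -0.74 and 1.35, a difference of 2.09 ± 0.88 (limma adjusted p = 0.651) that was 0.84 without pair 4 and 3.34 without pair 3.

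The difference for LPO was -3.66 ± 2.46 (limma adjusted p = 0.71) and that for PIGR was -2.27 ± 1.64 at A_73_115481 (adjusted p = 0.727), and both came from pair 1. Without pair 1 they were -0.05 and 0.11. Leaving out pair 2 instead brought LPO to -7.27 and CATHL5 to -6.08. Lactation II was then held by pair 1 alone, whose spread is assumed to be that of lactation IV, so no test is read from this fit. Pair 1 holds L1, where LPO stood at 8.42.

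The genes whose levels ran most like each member over the 8 cows are given as a description, since all genes share the same arrays. CATHL1 and CATHL4 were most like EME2, H19 and DEFB7, with r of 0.946, 0.932 and 0.924 for CATHL1. DEFB7, a beta-defensin, had its highest levels in H4, L4 and H2, at 11.01, 10.52 and 9.03. EME2, in contrast, spanned only 6.36 to 6.89.

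CATHL2 at A_73_P063676 was most like TNFRSF25 (r = 0.95), DPP3 and DIPK2B. CATHL5 had the closest partner of any member, UCHL3 (r = 0.993), a ubiquitin hydrolase with levels of 10.09 in L1 and 12.24 in L3, followed by PLA2G12A and SLC39A12. CATHL5 thus ran with other genes than CATHL1 and CATHL4 did.

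S100A8 was most like ARHGAP31 (r = 0.979), PFN1 and RNF44, each highest in the cows of pair 4. S100A9 was most like HP (r = 0.976), the haemoglobin-binding acute phase protein haptoglobin, then ASXL2 and MAP3K11. HP stood at 13.30 in H4 and at 6.36 to 8.37 in the other 7 cows, so this likeness rests on 1 cow. S100A12 was most like CMTM7 (r = 0.954), MEF2C and LGI4.

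LTF was most like FOXP2 (r = 0.92), ZC3H12A, an RNase that limits inflammatory transcripts, and UBQLN2. LPO was most like SDC2 (r = 0.992), ATP2C2, a calcium pump of the secretory pathway, and BTN1A1, a coat protein of milk fat globules, which stood at 9.35 in L1 and 14.61 to 16.83 elsewhere. PIGR was most like JAG2 (r = 0.983), TOMM7 and ANG2. All 6 partners of LPO and PIGR were lowest in L1.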

How the data were processed

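From each sample 1000 ng of RNA was labelled with Cy3 or Cy5, as the labels' protocols state. Per the file headers, Agilent Feature Extraction 10.10.1.1 made the deposited intensity values of each spot. The authors' deposited value table holds log2 or log10 ratios with scale and centring unstated, and all 8 columns correlated positively with high over low yield (r 0.362 to 0.952, slopes 0.09 to 0.844, medians -0.04 to 0.02), so its direction was settled and it served as an alternative. The scanner files' LogRatio column, a log10 ratio per the file headers, was not used for the results.

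The mean spot intensities were corrected in limma 3.58.1 (R 4.3.3) by normexp, with noise from 153 negative control spots and an offset of 50, then by loess within each array with control spots at weight 0. Outlier spots (6 to 118 per array) were left empty, and saturation was flagged at 0 spots. Spots of a probe, then both dye orientations of a pair, were averaged as log2 ratios, so the replicate is the cow pair. Across all probes the 2 orientations of pairs 1 to 4 correlated at 0.753, 0.294, 0.668 and 0.26. Cow levels are log2 intensities rebuilt from ratio and mean intensity after quantile scaling of the latter, and are not compared between probes. A probe was tested if well above background in 6 of 8 channels of high-yield or of low-yield cows (29867 of 43653 probes). Their number of such probes per channel ran from 22027 to 42482, and the number of arrays limits the precision.

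lmFit and eBayes tested the mean of 4 pair ratios against 0, and lactation IV minus II, two-sided, with Benjamini-Hochberg adjustment at 0.05 over all tested probes. The limma step alone was run on simulated data, with normal ratios drawn independently for each probe. That run does not cover dye effects, single outlying cows or likeness between probes. Symbols came from the files and RefSeq names (33539 of 43653 probes named). The members, gene lists and markers were chosen with earlier results of these data known. Named were all member probes, per list up to 3 genes with 1 direction in all 4 pairs and the largest mean, and per member the 3 genes most alike over 8 cows; 1 gene that this rule names is not reported here. Neighbouring cathelicidin probes, the second lactoperoxidase probe, XDH and SLC5A5 were chosen after their values were seen. Alternatives tried were the background correction, offset, scaling, filter, dye orientation, pairing, slide, single pairs left out and the deposited table.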

Additional observations from a re-analysis of the deposited data

Results flagged for a closer look

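A cow or pair was set apart from the other 3 of its group when its gap, as a share of the group's range, exceeded Dixon's 95% critical value, which chance does in about 1 in 20 groups. In the low-yield group L4 stood high for CATHL1 (11.96, A_73_120669), CATHL4 (11.15), CATHL2 at A_73_P423416 (10.67) and S100A12 at A_73_115208 (11.09). Among high-yield cows, H4 stood high for S100A9 (10.83). LPO stood low in L1 (8.42). Of the pair ratios, pair 4 stood low for CATHL2 at A_73_120001 (-0.79), and pair 1 stood high for LPO (6.06) and for PIGR at A_73_115481 (4.79) and A_73_P045951 (4.77).

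For 6 probes both pairs of lactation II moved one way and both of lactation IV the other. Lactation IV minus II was -2.59 for CATHL2 at A_73_P063676, -4.65 for CATHL5, 2.09 for S100A9, and 1.26, 1.64 and 1.37 for LTF at A_73_116655, A_73_P048381 and A_73_P467448. Limma's test of this difference gave adjusted p-values of 0.641 or 0.651 for each of them, so none passed.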

How the results depend on the processing

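No member probe passed the adjusted yield test under any alternative run. Of 20 member probes, 0 changed sign with scaled arrays, 4 with processed signals, 7 in Cy5 alone, 10 within lactation IV, 6 without pair 1 and 7 without pair 2. Signs of the brightest probes changed as follows. Within lactation IV the mean was -0.37 for CATHL1, -0.0746 for CATHL4, -1.25 for CATHL2, 0.53 for LTF and -1.21 for LPO; within lactation II it was 2.21 for CATHL5 and -0.74 for S100A9. CATHL5 gave 0.0264 with the saddle-point fit, 0.0508 with processed signals, 0.19 with the deposited table, 0.0214 with an offset of 10 and 0.0925 with the high-yield cow in Cy3. In Cy5, S100A8 gave -0.25 and LTF 0.35. Unpaired and without L1, chosen after seeing the data, CATHL2 gave -0.53, S100A8 -0.0232 and LPO -0.89. The lactation difference of S100A8 was -0.0726 with processed signals. The cause was not tested.

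Leaving out each pair gave yield ratios of -0.0491 to 1.5 for CATHL1, -0.39 to 0.69 for CATHL2, -1.36 to 0.75 for CATHL5, -0.46 to 0.71 for S100A9, -0.42 to 0.16 for LTF and -1.20 to 1.32 for LPO, and lactation differences of -0.11 to 0.39 for S100A8 and -4.64 to 0.11 for PIGR. The number of probes called for the lactation difference ran from 0 to 184; without pair 2 it was 184, and with all pairs 0. At an unadjusted p under 0.05, 1927 probes for yield became 921 without pair 2 and 5097 with the high-yield cow in Cy3, and 2289 for lactation became 916 without pair 3 and 5748 without pair 2. No paired analysis was possible because the lactations share no replicate number; yield pairs are built into the arrays.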

Other observations

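Beta-defensins, the other large family of cationic antimicrobial peptides in cattle epithelium, had mean ratios above 0 without passing the adjusted test. Of 27 listed genes, 12 were on the array and 11 were tested. All 11 had a mean ratio above 0, as had 55.0% of all named genes, and their median was 0.40 beside 0.03 for all named genes. TAP was tested only through high-yield cows, where it was brighter, and DEFB119 only through low-yield cows. Without TAP and DEFB119, 9 of 9 were above 0, while the median of 0.40 includes them. Of the 11, 4 were higher in all 4 pairs, against 9.66% of all named genes. DEFB7 had ratios of 0.57, 2.23, 0.26 and 0.49 (mean 0.89 ± 0.90, SD, n = 4), DEFB122 a mean of 0.32 ± 0.22 and DEFB123 a mean of 0.27 ± 0.12. Family members are close copies, and their probes may share signal.

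In several other defence genes 1 cow stood apart or the ratios changed sign between lactations. The following genes were chosen after their values were seen. LAP, lingual antimicrobial peptide, stood at 13.48 in H4, the cow with the highest S100A9 and HP, and at 8.34 to 10.81 in the other 7 cows. LCN2, which binds bacterial siderophores, had pair ratios of -3.89, -2.03, 2.14 and 0.995, and CHI3L1, a chitinase-like protein, had -4.03, -1.14, 3.68 and 3.24. Both were negative in lactation II and positive in lactation IV, as LTF was at 3 of its 5 probes. Of all tested probes, 7.03% had this pattern, and lactation and slide cannot be told apart.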
